A study of Mus musculus with 33 samples.

Results

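1700121C08Rik, Lypd4 and Gm6089 are 3 mouse genes that had almost no RNA-seq reads in Setdb1F/F ESCs and at least 528 reads a library in Setdb1Δ/Δ cells. They were picked by name for that pattern, out of 55487 genes listed in the deposited tables, so their levels in the Setdb1 cells are a description and were given no test. The rule does not use their levels in 7 Hp1 mutants and 2 wild-type sets, although those levels were known when the genes were chosen.

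The series holds 33 libraries of C57BL/6 mouse ESCs in 11 groups of 3. Hp1αΔ/Δ, Hp1βΔ/Δ, Hp1γΔ/Δ, Hp1α/βΔ/Δ and Hp1α/β/γΔ/Δ cells had wild-type set A as their control, and Hp1α/γΔ/Δ and Hp1β/γΔ/Δ cells had wild-type set B. The single and double mutants were constitutive CRISPR knockout lines, while the triple mutant was made by transfecting Cre into Hp1α/βΔ/Δ cells with a floxed Hp1γ gene, and Setdb1Δ/Δ cells by Cre in the floxed line. The study took RNA of the triple mutant a few days after Cre, and reports much apoptosis and cell-cycle arrest in these cells. The triple mutant thus shows an early state after loss of Hp1γ, unlike the constitutive lines. The study's methods call the 3 libraries of a group biological replicates, and those of the triple mutant came from separate experiments. Whether the libraries of a knockout line came from more than 1 clone is not given in the sources used here, and the p-values measure only the spread between these samples. For the triple mutant the study also describes a control of uncut Hp1α/βΔ/Δ cells with the floxed Hp1γ gene, given a vector without Cre. The labels of set A, whose table the triple mutant shares, say wild type and were followed, and Hp1α/βΔ/Δ cells served as its other control. The Setdb1 line and the Hp1 lines were not compared side by side in any deposited table. The cells were grown on feeder fibroblasts that were removed by plating before RNA was taken.

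SETDB1 is a histone methyltransferase that places H3K9me3, a mark of silent chromatin, on endogenous retroviruses and on a set of genes of the germline. The HP1 proteins HP1α, HP1β and HP1γ, made from Cbx5, Cbx1 and Cbx3, bind methylated H3K9 and are the readers of that mark. Genes of spermatogenesis are held silent in ESCs by several such layers, DNA methylation and the MGA and E2F6 complexes among them, and many pseudogenes and non-coding RNAs of the testis are silent there as well.

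Lypd4 (ENSMUSG00000062732) codes for a Ly6/PLAUR domain protein, one of a family of small cell-surface and secreted proteins, several of which, TEX101 among them, are made by germ cells of the testis. It lies at chr7:24864620-24869941 on the minus strand of GRCm38, has up to 5 exons, and starts 116 bases from Dmrtc2, a DMRT-family gene of the testis transcribed the other way. 1700121C08Rik (ENSMUSG00000086275) is a non-coding RNA of 4 exons, listed as antisense, at chr4:123833622-123859513 on the minus strand. It starts 166 bases from 4933427I04Rik, a protein-coding gene on the plus strand, and the pseudogene Gm12904 lies inside it without touching any of its exons. Gm6089 (ENSMUSG00000105422) is a processed pseudogene of 1 exon at chr5:26070537-26071474 on the plus strand, inside a cluster of Speer-type genes.

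The windows over the starts of both head-to-head pairs are shown because they hold the sequence that each member shares with its partner. They come from RefSeq (GRCm38.p6), run on the plus strand, and have in capitals the bases that lie between the start of the member on the left and the start of its partner on the right. The first is chr7:24869807-24870106 and the second chr4:123859410-123859709.

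Lypd4 and Dmrtc2: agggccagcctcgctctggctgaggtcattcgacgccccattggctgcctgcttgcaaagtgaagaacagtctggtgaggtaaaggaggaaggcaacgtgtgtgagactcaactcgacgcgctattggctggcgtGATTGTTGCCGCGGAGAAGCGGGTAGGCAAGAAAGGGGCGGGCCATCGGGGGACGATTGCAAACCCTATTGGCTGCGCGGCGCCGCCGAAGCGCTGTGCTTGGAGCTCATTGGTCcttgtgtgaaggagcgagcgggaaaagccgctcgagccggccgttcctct
1700121C08Rik and 4933427I04Rik: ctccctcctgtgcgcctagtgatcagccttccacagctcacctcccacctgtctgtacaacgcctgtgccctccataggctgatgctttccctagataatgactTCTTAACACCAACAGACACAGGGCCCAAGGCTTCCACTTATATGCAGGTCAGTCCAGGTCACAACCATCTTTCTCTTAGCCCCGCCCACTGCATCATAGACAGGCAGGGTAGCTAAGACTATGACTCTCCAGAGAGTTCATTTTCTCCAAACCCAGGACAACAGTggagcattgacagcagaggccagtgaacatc

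The windows were unlike in base composition. The Lypd4 and Dmrtc2 window held 26 CpG dinucleotides, more than 83.1% of 32851 RefSeq start windows of the same length, whose median was 7. The 1700121C08Rik and 4933427I04Rik window held 3, more than 23.3% of them. The motif GCGGGAA, of the kind bound by E2F factors, was searched on both strands and occurred in the Lypd4 and Dmrtc2 window, downstream of the Dmrtc2 start, and not in the other; 4.6% of all windows held it. The E-box CACGTG, the same on both strands, occurred in neither, and 7.15% of all windows held it. RefSeq had no start window for Gm6089.

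Gm6089 is a copy of the coding gene Rrs1, a ribosome biogenesis factor on chromosome 1 (GRCm38). Its transcript matched that of Rrs1 at 93.4% identity over 939 aligned bases, with 60 mismatches. It also matched 2 other processed pseudogenes of chromosome 5, Gm5067 (90.7%) and Gm21168 (90.3%), whereas Lypd4 and 1700121C08Rik had no similar transcript besides themselves. The stretch of 120 bases that differs most is shown because reads are told apart by such differences, which stand in capitals. There are 14 of them. The first line is bases 28 to 147 of the Gm6089 transcript and the second bases 252 to 371 of the Rrs1 transcript, both from the GENCODE M21 transcript set.

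Gm6089: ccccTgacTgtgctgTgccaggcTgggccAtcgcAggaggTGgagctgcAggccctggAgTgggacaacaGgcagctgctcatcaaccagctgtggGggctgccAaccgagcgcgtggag
Rrs1: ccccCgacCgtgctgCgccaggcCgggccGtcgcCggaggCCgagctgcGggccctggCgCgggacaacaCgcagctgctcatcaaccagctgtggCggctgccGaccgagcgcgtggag

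The longest run without a difference between the aligned transcripts was 99 bases.

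In Setdb1Δ/Δ cells all 3 genes had reads in every library, and in Setdb1F/F cells none had more than 2. Lypd4 had 528, 569 and 587 estimated counts in the 3 Setdb1Δ/Δ libraries and 0 in each of the 3 Setdb1F/F libraries. 1700121C08Rik had 1025, 955.8 and 1155 in Setdb1Δ/Δ and 0 in each Setdb1F/F library. Gm6089 had 2590.3, 2783 and 2890.0 in Setdb1Δ/Δ and 2, 0 and 1.06 in Setdb1F/F. The groups did not overlap for any of the 3 genes, as their choice fixed. As these are bulk samples, few cells with much RNA cannot be told apart from many cells with little.

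In counts scaled to library size (CPM, with TMM normalization over all 33 libraries), Setdb1Δ/Δ cells had 132.7 ± 3.24 of Gm6089, 50.4 ± 4.69 of 1700121C08Rik and 27.1 ± 0.596 of Lypd4 (SD, n = 3). The smallest amount that a library could show was taken as 3 counts, which covers counting error only. Against that floor Lypd4 was at least 163-fold higher in Setdb1Δ/Δ than in Setdb1F/F cells and 1700121C08Rik at least 305-fold higher. Gm6089 had 3 counts in the Setdb1F/F libraries together, and its ratio was 2419 with an exact 95% counting interval of 827 to 11732.

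**Figure D1:**
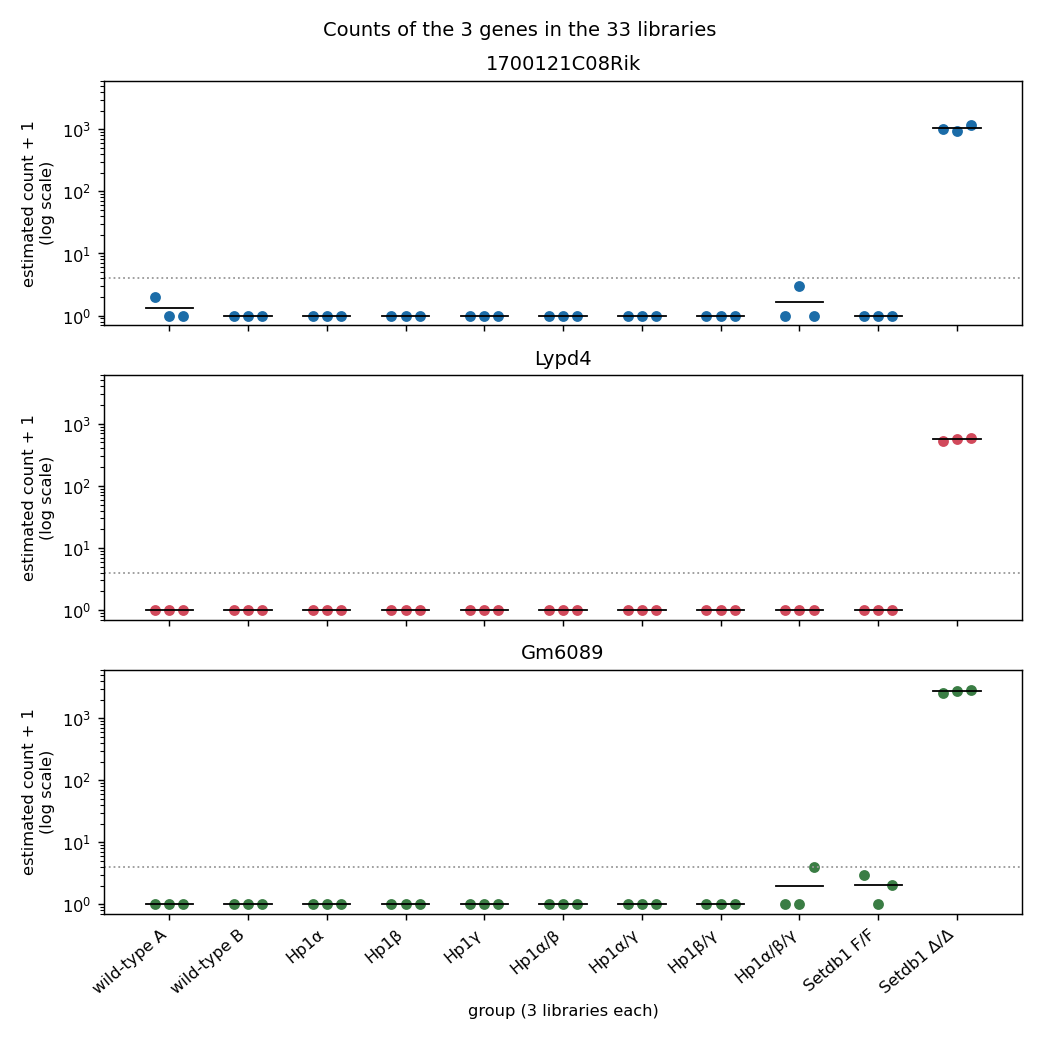
Estimated counts plus 1 (log scale) of each gene in the 33 libraries by group, where points are libraries, bars are group means and the dotted line marks 3 counts. All 3 genes sit at 528 counts or more in the Setdb1Δ/Δ libraries alone, and no other library exceeds 3 counts.

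The order of the 3 genes depended on the scale. Per kilobase of the listed transcript length, CPM was 141.5 ± 3.45 for Gm6089, 74.5 ± 6.93 for 1700121C08Rik and 20.1 ± 0.443 for Lypd4 in Setdb1Δ/Δ cells. In the TPM deposited by the authors, which is also per length, Lypd4 was at 57.1 ± 2.07, Gm6089 at 52.3 ± 1.64 and 1700121C08Rik at 7.08 ± 0.696. Lypd4 and Gm6089 had TPM ranges that did not overlap, 55.42 to 59.38 against 51.00 to 54.16, but lay close. Counts for each unit of TPM and of listed length were 22.1 times those of the median gene for 1700121C08Rik, the 99.8th percentile of 9617 genes, and 5.69 times for Gm6089, the 98.6th percentile, against 0.742 times for Lypd4, the 15.2nd percentile. The deposited TPM of the first 2 thus does not match their counts over the listed length, and an order of levels between these genes cannot be read from either scale alone.

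In the Hp1 mutants the 3 genes were silent or at a count of at most 3. Lypd4 had 0 counts in each of the 27 Hp1 and wild-type libraries. Gm6089 had 0 in 26 of the 27 and 3 counts in 1 library of the triple mutant. 1700121C08Rik had 0 in 25 of the 27, 2 counts in 1 triple mutant library and 1 count in 1 library of wild-type set A. The triple mutant, where the 2 highest of these counts lay, still had 0 in at least 2 of its 3 libraries for each gene, and it overlapped the wild-type libraries.

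These zeros were read at a depth of 17330936 to 25743149 counts in a library. The floor of 3 counts came to between 0.116 and 0.165 CPM in the 27 libraries. In the groups without a count, Setdb1F/F included, that floor was 0.467% to 0.612% of the Setdb1Δ/Δ level of Lypd4, 0.251% to 0.328% of that of 1700121C08Rik and 0.0952% to 0.113% of that of Gm6089. Setdb1Δ/Δ cells therefore had at least 163 to 214 times the Lypd4 level of the other 10 groups, at least 305 to 399 times the 1700121C08Rik level of 8 groups and at least 882 to 1051 times the Gm6089 level of 8 groups. For the triple mutant the ratio of Setdb1Δ/Δ was 3107 for Gm6089 (exact 95% counting interval 1063 to 15070) and 1769 for 1700121C08Rik (489 to 14613). For wild-type set A and 1700121C08Rik, with its single count, the ratio was 3217 (577 to 127103). In the ratios to Hp1 and wild-type groups the cell line and the Setdb1 mutation cannot be told apart.

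None of the 3 genes passed the filter on low counts in any of the 8 Hp1 comparisons. The edgeR quasi-likelihood test was therefore not run on them, and none could be called. Of all genes tested, 1.56% were higher in Hp1αΔ/Δ, 2.75% in Hp1βΔ/Δ, 2.04% in Hp1γΔ/Δ, 2.96% in Hp1α/βΔ/Δ, 6.75% in Hp1α/γΔ/Δ, 7.32% in Hp1β/γΔ/Δ and 25.1% in Hp1α/β/γΔ/Δ, and 25.4% in Hp1α/β/γΔ/Δ when set against Hp1α/βΔ/Δ. A gene counted as higher when its adjusted p was under 0.05 and its log2 fold change was over 1. The matching shares of lower genes were 3.31%, 6.36%, 3.55%, 5.19%, 16.3%, 4.54%, 17.1% and 16%. Without the filter, edgeR fitted a value only where a member had a count, which made 8 values. None had an unadjusted p under 0.05, with a lowest of 0.182, and DESeq2 on the same 8 gave a lowest of 0.579. In the triple mutant against set A, Gm6089 had a fitted log2 fold change of 3.06 ± 2.30 (SE) with an adjusted p of 0.271, and 1700121C08Rik 0.72 ± 2.09 with an adjusted p of 0.780. Those fitted values rest on 3 counts and 2 counts and depend on the prior count of the fit.

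The mutated genes were lower in the groups labelled for them, with Cbx5 in the triple mutant short of a call. Cbx5 was called lower in Hp1αΔ/Δ, Hp1α/βΔ/Δ and Hp1α/γΔ/Δ cells, Cbx1 in each comparison of a mutant without Hp1β, and Cbx3 in each of a mutant without Hp1γ. In the triple mutant against set A, Cbx1 fell by 3.27 and Cbx3 fell by 1.48 on the log2 scale, and Cbx5 had a log2 fold change of -0.81, short of the fold threshold (adjusted p = 1.33e-16, edgeR). At 270.9 ± 4.87 CPM the triple mutant had more Cbx5 RNA than the Hp1α/βΔ/Δ cells, at 202.3 ± 4.73 (SD, n = 3), a log2 fold change of 0.44 ± 0.03 (SE) with an adjusted p of 3.52e-09 in edgeR. Set A, at 486.4 ± 6.36 CPM, had the most Cbx5 RNA of the 3 groups. In Hp1α/γΔ/Δ replicate 2 Cbx5 was at 85.4 CPM against 181.9 and 182.5 in the others, and that group's Cbx5 level was 150 ± 55.9 CPM against 454.1 ± 19.8 in set B (SD, n = 3). All 3 members had 0 counts in that library as in the others of its group. Setdb1 itself was at 2714, 2356 and 2222 counts in Setdb1F/F and 1427, 1446 and 1436 in Setdb1Δ/Δ cells, where the deletion removes only some exons. In the triple mutant Setdb1 was at 137.3 ± 2.47 CPM against 201.3 ± 6.84 in set A. The log2 fold change was -0.52 ± 0.03 (SE) with an adjusted p of 2.18e-11 in edgeR, so its RNA was lower but present. The study reports less SETDB1 protein in these cells as well. By RT-qPCR it found RNA of the H3K9 methyltransferases, except Glp, about unchanged or slightly raised in the first days after Cre. It reports a strong decrease of all of them later. Whether the remaining SETDB1 bears on the silence of the 3 genes was not tested.

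The partners of the head-to-head pairs differed from each other. Dmrtc2, which starts 116 bases from Lypd4, had 2107, 2292 and 2283 counts in Setdb1Δ/Δ and 22, 17 and 14.14 in Setdb1F/F cells. Its level was 107.4 ± 1.42 CPM in the former and 0.962 ± 0.137 in the latter, a ratio of 112, so both genes of the pair were high in Setdb1Δ/Δ cells. Unlike Lypd4, Dmrtc2 had some reads in every group, from 0.0974 ± 0.0838 CPM in Hp1βΔ/Δ to 1.09 ± 0.252 in wild-type set B. In the 6 Hp1 comparisons where it passed the filter it had log2 fold changes of -0.87 to -0.07, none of which was called (lowest adjusted p = 0.136, edgeR) and some of which changed sign under other settings, and in the triple mutant it was at 9, 11 and 18 counts against 10, 26 and 18 in set A. The ranges overlapped. Neither gene of the pair rose in the triple mutant.

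4933427I04Rik, which starts 166 bases from 1700121C08Rik, was on where its partner was not. It had 30.05, 30.02 and 23.05 counts in the triple mutant and 0 in each library of set A and of Hp1α/βΔ/Δ. With 1.20 ± 0.278 CPM it was at least 8.51-fold higher than set A and at least 8.58-fold higher than Hp1α/βΔ/Δ (adjusted p = 7.66e-07 and 2.71e-06, edgeR). In Hp1β/γΔ/Δ cells it had 18.40, 11.62 and 28.09 counts against 1.01, 1.05 and 5.02 in set B, which did not overlap, and it rose by 2.83 ± 0.56 (SE) on the log2 scale with an adjusted p of 0.000604 in edgeR. Without set B replicate 3, the library with 5.02 counts, the rise was 3.95 and still called. In the same 6 mutant libraries 1700121C08Rik had 2 counts in all. In Setdb1Δ/Δ cells both genes of the pair had reads in every library. There 4933427I04Rik was at 0.675 ± 0.142 CPM, with 13.98, 11.31 and 16.73 counts against 0, 1 and 0 in Setdb1F/F, while 1700121C08Rik was at its 50.4 CPM. Which strand the authors' counting used is not given in the sources used here, but the annotated spans of the pair do not overlap.

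For Gm6089 the gene to set beside it is Rrs1, from which a read could be misassigned. Rrs1 had 1648 to 4232 counts in every one of the 33 libraries. In Setdb1Δ/Δ cells it was at 102.5 ± 5.78 CPM and in Setdb1F/F cells at 130.9 ± 4.97 (SD, n = 3). In the deposited TPM the order was the other way, 102.6 ± 5.10 in Setdb1Δ/Δ and 92.3 ± 3.85 in Setdb1F/F cells, with ranges that did not overlap. In the triple mutant it was at its highest, 167.5 ± 3.37 CPM, and Gm6089 had 0, 0 and 3 counts there. The other similar pseudogenes, Gm5067 and Gm21168, had at most 4 counts in any library. Outside the Setdb1Δ/Δ group no library had more than 3 counts of Gm6089 beside those of Rrs1. Whether reads of Rrs1 were counted for Gm6089 in Setdb1Δ/Δ cells was not tested.

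**Figure D2:**
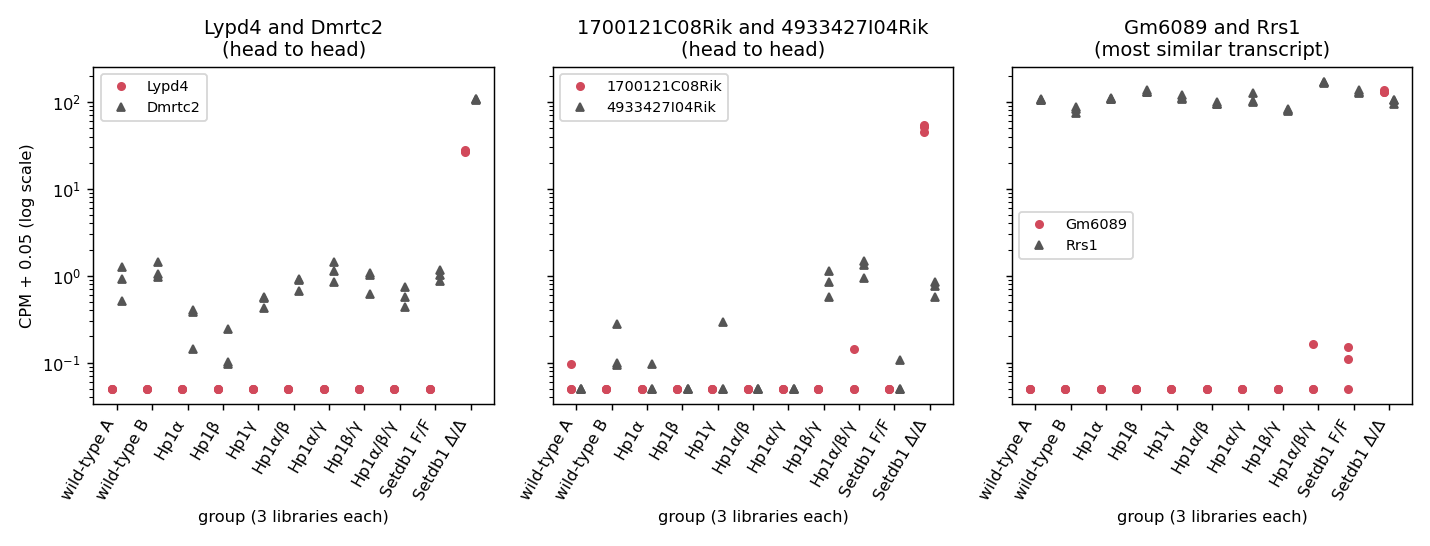
CPM plus 0.05 (log scale) of each of the 3 genes (circles) and of its head-to-head partner or most similar transcript (triangles) in each library by group. Dmrtc2 is high with Lypd4 in Setdb1Δ/Δ cells, 4933427I04Rik is above its controls in Hp1β/γΔ/Δ and triple mutant cells where 1700121C08Rik is at 2 counts or fewer, and Rrs1 is between 81.0 and 167.5 CPM in the mean of every group.

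Around the 3 genes, 31 annotated genes lie within 100 kb, 10 near 1700121C08Rik, 11 near Lypd4 and 10 near Gm6089. Among them were genes that ESCs use. Rps19, a ribosomal protein gene 14430 bases from Lypd4, was at 451.5 ± 11.4 CPM in Setdb1F/F and 227.4 ± 8.22 in Setdb1Δ/Δ cells, and Arhgef1 was at 116.6 ± 1.31 and 64.8 ± 3.0. Rragc, which codes for a Rag GTPase of nutrient sensing, lies 57933 bases from 1700121C08Rik and was at 67.1 ± 2.1 and 94.5 ± 2.72. Of the active genes nearest to the Lypd4 and Dmrtc2 pair, Rps19 and Arhgef1 thus had lower CPM in Setdb1Δ/Δ cells, where the pair was high. With 0.5 CPM added to both means, the log2 ratios were -0.99 and -0.84, short of the fold threshold. They were read in CPM only.

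Of the 31 neighbours, 14 passed the filter in at least 1 of the 8 Hp1 comparisons and 9 were called in at least 1, 4 near 1700121C08Rik, 4 near Lypd4 and 1 near Gm6089. In the triple mutant against set A 4 of 12 tested rose and 0 fell, beside 25.1% and 17.1% of all genes tested, and counts this small are not read as a result about the loci. In Hp1β/γΔ/Δ cells 2 of 13 rose and 4 fell, beside 7.32% and 4.54%, and in the other 5 mutants none of the 9 to 11 tested was called. In those 5 mutants 1.56% to 6.75% of all genes tested rose and 3.31% to 16.3% fell. Rragc rose by 2.87 ± 0.05 (SE) on the log2 scale in the triple mutant against set A, to 269.1 ± 6.00 CPM (adjusted p = 1.48e-19, edgeR). Gm12905, a non-coding RNA next to it, rose by 2.73 ± 0.16 in the same comparison (adjusted p = 8.92e-12, edgeR) and fell by 1.04 ± 0.27 in Hp1β/γΔ/Δ cells. Speer4a, 30979 bases from Gm6089, rose by 5.51 ± 0.24 in the triple mutant, from 0.249 ± 0.114 to 11.4 ± 0.733 CPM (adjusted p = 6.56e-14, edgeR). By locus, 3 of 6 tested neighbours of 1700121C08Rik, 0 of 5 of Lypd4 and 1 of 1 of Gm6089 rose in the triple mutant against set A, and a difference between the loci was not tested. Near Lypd4, Ceacam10 rose by 2.24 ± 0.44 in Hp1β/γΔ/Δ cells (adjusted p = 0.000622, edgeR), where Cd79a and Gm9844 fell by 1.28 and 1.29, and Arhgef1 fell by 1.04 in the triple mutant against Hp1α/βΔ/Δ. The last of the 9 was Rhbdl2, near 1700121C08Rik, which fell by 1.51 in Hp1β/γΔ/Δ cells. The calls of Gm9844, Gm12905 and Cd79a in Hp1β/γΔ/Δ cells and of Arhgef1 were lost under at least 1 other setting of the fit, and the value of Gm9844 went to -1.94 without Hp1β/γΔ/Δ replicate 1.

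The Speer-type cluster around Gm6089 also separated the cell lines. Gm21698 was at 4.73 ± 0.411 CPM in Setdb1F/F and 13.7 ± 0.317 in Setdb1Δ/Δ cells, and at 0 in all 27 Hp1 and wild-type libraries. Gm7347, 11956 bases from Gm6089, was at 1.19 ± 0.506 and 8.10 ± 1.71 CPM in the Setdb1 cells and at no more than 0.0162 CPM in the mean of any Hp1 or wild-type group. The Setdb1F/F cells had these reads with SETDB1 in place. Here, as for every gene in this report, the line and the mutation cannot be told apart when Setdb1Δ/Δ cells are set beside Hp1 mutants. How alike the genes of this cluster are in sequence was not measured, and the division of reads among them is uncertain.

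**Figure D3:**
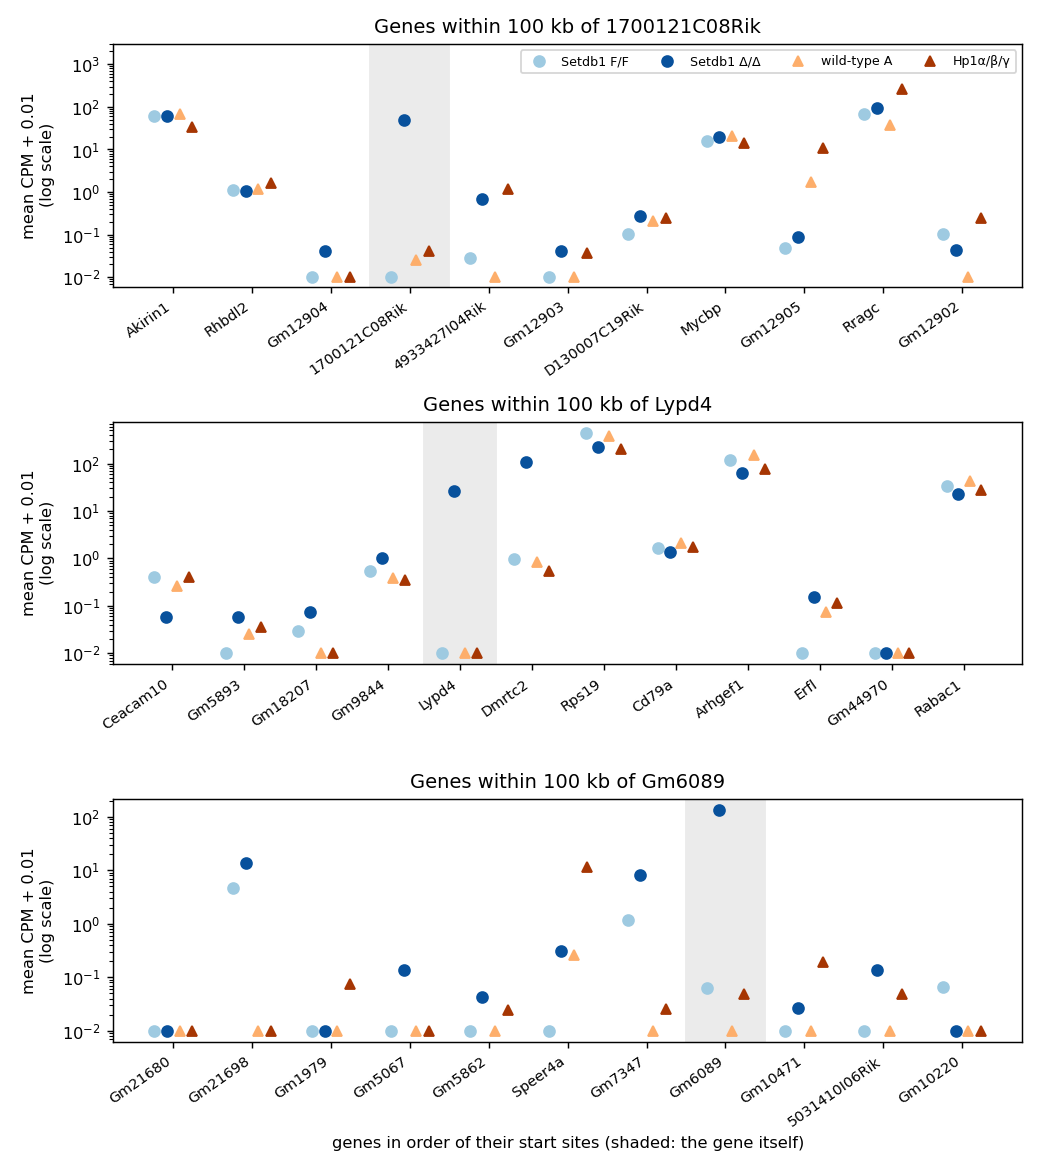
Mean CPM plus 0.01 (log scale, 3 libraries a group) of the annotated genes within 100 kb of each member, in order of their start sites, in Setdb1F/F, Setdb1Δ/Δ, wild-type set A and triple mutant cells. Dmrtc2 rises beside Lypd4 in Setdb1Δ/Δ cells, while 4933427I04Rik, Gm12905, Rragc and Speer4a are highest in the triple mutant.

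The 3 genes belong to a class of 85 genes that had at most 5 counts in each Setdb1F/F library and at least 100 in each Setdb1Δ/Δ library. The class held 49 protein-coding genes, 18 long non-coding RNAs, 15 pseudogenes and 3 of other kinds. By CPM in Setdb1Δ/Δ cells, which is not per length, Gm6089 was in place 2, 1700121C08Rik in place 5 and Lypd4 in place 14, and the median of the class was 12.8 CPM. The gene in first place was Tex101, another Ly6/PLAUR gene of male germ cells, with 205.1 ± 1.19 CPM. Of the 85 genes, 4 had exactly 0 in each Setdb1F/F library in the estimated counts as deposited and 6 after rounding to whole counts, Lypd4 and 1700121C08Rik among them both ways.

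In the triple mutant and in Hp1β/γΔ/Δ cells much of the class was on, and the 3 genes were not. Of the 85, 42 were called higher in the triple mutant against set A, which is 49.4% of the class beside 25.1% of all genes tested, and 45 passed the filter there. Against Hp1α/βΔ/Δ, 44 of the 85 were called higher, beside 25.4% of all genes tested. In Hp1β/γΔ/Δ cells 31 were called higher, 36.5% of the class beside 7.32% of all genes tested, of 36 that passed. Among the 31 were related genes, Zscan4b, Zscan4c, Zscan4d, Zscan4e, Zscan4f, Zscan4-ps2, Usp17la and Usp17le. All of these were called higher in the triple mutant as well. The calls are therefore not independent of each other. In the other 5 mutants 1 to 3 of the 85 were called higher, beside 1.56% to 6.75% of all genes tested, and 8 to 13 passed. A gene of this class passes the filter mostly through the group where it is high, so that the shares of those that passed are not given as support. The shares of the class count genes that were not tested, and the shares of all genes do not.

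Tex101 was at 272 to 342 counts in the triple mutant libraries and 88 to 109 in those of Hp1β/γΔ/Δ, against 6 to 13 in set A and 6 to 10 in set B, none of which overlapped. It rose by 5.0 on the log2 scale in the triple mutant and by 3.37 in Hp1β/γΔ/Δ cells. Lypd4, of the same family, had 0 in all of these libraries. Tex12, a synaptonemal complex gene in place 3 of the class, resembled the 3 genes, with 58.4 CPM in Setdb1Δ/Δ and 0.113 in the triple mutant cells. Only 12 of the 85 genes had at most 3 counts in each of the 27 Hp1 and wild-type libraries. They were the 3 members, the pseudogenes Vmn1r-ps135, Cbx3-ps7, Gm48906, Gm7943 and Gm15529, the pheromone receptor gene Vmn2r22, the immunoglobulin segment Igkv3-3, and the non-coding RNAs 1700003L19Rik and Gm39132. Of the 15 pseudogenes in the class, 4 passed the filter in the triple mutant against set A. These 4 were called higher, where 25.1% of all genes tested were. The rest were not tested, and passing rests mostly on the group where a gene is high. The count is therefore not read as a result about pseudogenes.

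**Figure D4:**
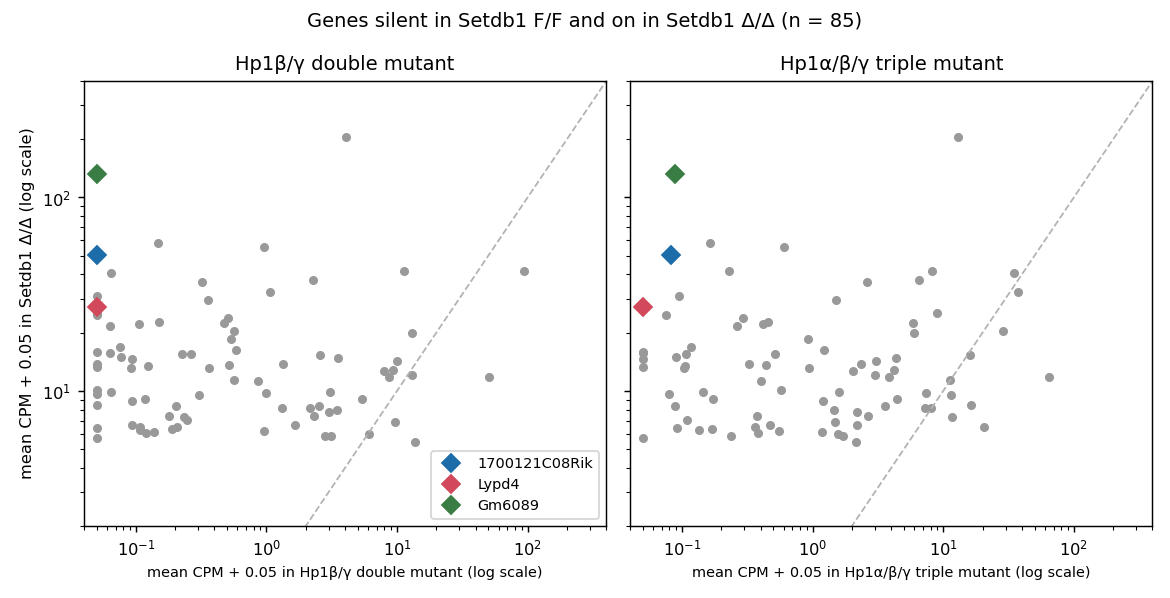
Mean CPM plus 0.05 of the 85 genes that were silent in Setdb1F/F and on in Setdb1Δ/Δ cells, with Setdb1Δ/Δ on the vertical axis and the Hp1β/γ double mutant (left) or the Hp1α/β/γ triple mutant (right) on the horizontal axis, all axes on log scales and the dashed line at equal levels. The 3 members (diamonds) lie at the left edge of both panels, below 0.1 CPM in the Hp1 mutants.

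Genes with the most similar pattern were sought among 17529 genes with at least 1 CPM in the mean of some group, by Pearson's r over the 11 group means of log2(CPM + 1). For Lypd4 these were Gm26898 (r = 1.0), 1700041M19Rik (r = 1.0) and Gm7943, then 1700121C08Rik and Cbx3-ps7. For 1700121C08Rik they were Cbx3-ps7, Lypd4, Gm26898, 1700041M19Rik and Gm6089, and for Gm6089 they were Cbx3-ps7, Vmn1r-ps135, Gm7943, Gm22658 and 1700121C08Rik. Every r was above 0.9999. The value rests on 1 group, Setdb1Δ/Δ, standing above 10 groups near 0, and the order within each list turns on single counts. Cbx3-ps7, a processed pseudogene named after Cbx3, was at 24.6 ± 1.27 CPM in Setdb1Δ/Δ cells, and Vmn1r-ps135 at 30.8 ± 1.53.

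Most of a list of 20 germline genes rose in the triple mutant. The list holds Mael, Stk31, Taf7l, Syce1 and Tex101, which the study names as higher in the triple mutant from these same libraries. The rise of those genes was thus known beforehand, and the counts of the list are a description only. Of 19 that passed the filter, 16 rose and none fell in the triple mutant against set A, where 25.1% of all genes tested rose, with a median log2 fold change of 1.94 beside 0.04 over all genes tested, and 18 of 19 rose against Hp1α/βΔ/Δ, with a median of 2.56 beside 0.03. Slc25a31, a carrier of sperm mitochondria, rose by 6.45 ± 0.40 (SE) on the log2 scale against Hp1α/βΔ/Δ to 7.10 ± 1.22 CPM (adjusted p = 2.97e-10, edgeR), and by 5.80 without Hp1α/βΔ/Δ replicate 2 and 7.16 without its replicate 1. Taf7l, a TFIID subunit of germ cells, rose by 4.86 ± 0.23 and Sycp1, a synaptonemal complex gene, by 3.80 ± 0.19. In Hp1α/γΔ/Δ cells 7 of 16 rose and 4 fell, beside 6.75% and 16.3% of all genes tested. In Hp1β/γΔ/Δ 5 of 17 rose and 3 fell, beside 7.32% and 4.54%. In Hp1βΔ/Δ 2 of 18 rose and 2 fell, beside 2.75% and 6.36%. None of the 16 genes of this list that passed the filter rose in Hp1αΔ/Δ, Hp1γΔ/Δ or Hp1α/βΔ/Δ cells, where 1, 1 and 4 fell. Of all genes tested, 1.56%, 2.04% and 2.96% rose there and 3.31%, 3.55% and 5.19% fell. The summed level of the list was 358.0 to 365.0 CPM in the triple mutant, 93.4 to 103.6 in set A, 252.7 to 258.5 in Setdb1F/F and 5091 to 5234 in Setdb1Δ/Δ libraries.

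The Ly6/PLAUR family, of which Lypd4 is a member, had genes called in both directions. Of 48 family genes 15 passed the filter in the triple mutant against set A, 5 rose and 5 fell, beside 25.1% higher and 17.1% lower of all genes tested, and the median was -0.38 beside 0.04. With 15 genes these counts lie near the shares of all genes. The same counts held against Hp1α/βΔ/Δ, with a median of -0.66. In Hp1β/γΔ/Δ cells 7 of 17 rose and 1 fell, beside 7.32% and 4.54% of all genes tested. In Hp1α/γΔ/Δ 3 of 15 rose and 5 fell, beside 6.75% and 16.3%. In the other mutants 1 rose and 1 to 3 fell of 11 or 12, beside 1.56% to 2.96% and 3.31% to 6.36%. Ly6k, a gene of male germ cells, was at 1.18 ± 0.208 CPM in the triple mutant and at 0 in each library of set A, at least 8.39-fold higher (adjusted p = 6.26e-07, edgeR), Ly6a rose by 3.96 ± 0.60 (4.64 without set A replicate 3), and Ly6g6e fell by 4.10 ± 0.28 against Hp1α/βΔ/Δ. The summed level of the family was 331.1 to 336.6 CPM in Setdb1Δ/Δ and 89.3 to 93.3 in Setdb1F/F libraries. That sum includes Lypd4, which was chosen on this contrast, at a mean of 27.1 against 0 CPM. It also includes Tex101, at a mean of 205.1 against 0.162 CPM. The sum is therefore not read as a rise of the family.

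Genes whose products silence germline genes in ESCs, 22 in all, were expressed in every group. In the triple mutant against set A 2 rose and 5 fell, beside 25.1% and 17.1% of all genes tested, with a median of -0.61 beside 0.04, and against Hp1α/βΔ/Δ 2 rose and 6 fell, with a median of -0.31. The falls include the deleted Hp1 genes. Mga, whose product holds germline genes silent, rose by 1.82 ± 0.04 (SE) against Hp1α/βΔ/Δ (adjusted p = 1.28e-15, edgeR), and Dnmt3b, a DNA methyltransferase gene, fell by 1.76 ± 0.03. In Hp1α/γΔ/Δ cells 1 rose and 5 fell, beside 6.75% and 16.3% of all genes tested. In the other 5 mutants none rose and 1 or 2 fell, beside 1.56% to 7.32% and 3.31% to 6.36%.

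Markers of other cells were looked at beside the members. The 8 ESC markers summed to 6597 to 6621 CPM in Setdb1F/F, 4353 to 4382 in Setdb1Δ/Δ, 2541 to 2547 in set A and 1242 to 1281 in triple mutant libraries. Single ESC markers went both ways. Tfcp2l1 had 12141 to 13222 counts in Setdb1Δ/Δ against 24647 to 28481 in Setdb1F/F libraries, but Zfp42 had 10799 to 11339 against 5741 to 6690. Nanog had 1516 to 1882 counts in the triple mutant against 4333 to 4489 in set A, but Esrrb had 7918 to 9725 against 6683 to 7141. The 9 markers of spermatids summed to 0.284 to 0.802 CPM in Setdb1Δ/Δ and 0.0564 to 0.472 in Setdb1F/F libraries. In each Setdb1Δ/Δ library Tnp1 was at 0 and Prm1, Prm2, Tnp2 and Akap4 at 0 or 1 count. Odf1 and Spata18 had 0 to 3 counts there, Acrv1 2 to 5 and Tssk6 0 to 10.92, and Tssk6 had 0 in each Setdb1F/F library. As a set, these markers of mature male germ cells were thus low where Lypd4 was on. The 9 markers of feeder fibroblasts summed to 14.1 to 14.4 CPM in Setdb1Δ/Δ, 16.9 to 18.1 in Setdb1F/F and 25.0 to 29.1 in triple mutant libraries. The 8 markers of the 2-cell-like state summed to 48.2 to 52.7 CPM in Setdb1Δ/Δ, 0.0564 to 0.200 in Setdb1F/F, 44.8 to 45.7 in Hp1β/γΔ/Δ, 14.1 to 14.6 in triple mutant and at most 1.26 in all other libraries. The sums hold unlike members, since Zscan4f had 379.2 to 454.2 counts in Setdb1Δ/Δ and 291.5 to 331.5 in Hp1β/γΔ/Δ libraries, but Tdpoz4 had 7 to 12.97 in the former and 82.7 to 93 in the latter. The part of these cells in the rise of the 3 genes was not tested.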

How the data were processed

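RNA-seq of 33 ESC libraries was read from 8 tables, 1 for each mutant with its control. The expected counts and TPM of every gene were deposited by the authors, who per the labels' processing notes used TopHat2 2.1.1, RSEM and edgeR on GRCm38.p5; the study's methods name DESeq2. The strand setting of the counting is not given in the sources used here. The tables also hold the authors' own fold changes and p-values, which were not used. Expected counts, of which 11.2% to 15.5% were not whole, were rounded for the tests. Totals ran from 17330936 to 25743149 counts a library. A count of 3, used as the floor, is 0.116 to 0.165 CPM over the TMM-scaled totals of the Hp1 and wild-type libraries. The 95% intervals and the floor cover counting error only.

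Libraries were grouped by genotype label. Each Hp1 mutant was fitted with its wild-type set alone, and the triple mutant also with Hp1α/βΔ/Δ, with R 4.3.3 and edgeR 4.0.16: filterByExpr at a minimum count of 10, TMM, glmQLFit and glmQLFTest, with Benjamini-Hochberg adjustment over all genes tested. A call needed an adjusted p under 0.05 with a log2 fold change beyond 1 in either direction. The fit was tested on data simulated for the triple mutant against set A (15777 genes), where it recovered 200 of 200 genes changed 4-fold, with 2 false calls. TPM served only to set levels beside each other.

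Positions came from GENCODE M21 (GRCm38, 55141 of 55487 identifiers matched), start windows from RefSeq and similar transcripts from blastn 2.17.0. Members and lists were chosen with earlier results of these data known. The text names the 3 members, Setdb1, Cbx5, Cbx1 and Cbx3, genes within 100 kb, the 5 genes most like each member, and of each list at most 4 called genes with the largest change. Tex12, Rrs1 and the similar pseudogenes, the 12 silent genes of the class and single markers of other cells were named after their values were seen. The same holds for the Zscan4 and Usp17l genes of the class and for the germline genes that the study names. Alternatives were other size factors, DESeq2, no filter, a joint fit, the other wild-type set, a replicate block and each library left out.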

Additional observations from a re-analysis of the deposited data

How the results depend on the processing

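No member was called in any of the 8 Hp1 comparisons under any alternative that was run, leaving out each library in turn included. Where the filter was kept this was fixed in advance, since counts of at most 3 cannot pass a minimum of 10. No log2 fold change of a member exists in the fit with the filter, so only the unfiltered and DESeq2 values could be given. The number of genes called moved by over 1.5 times only with the other wild-type set as control, to 1438 in Hp1αΔ/Δ, 2429 in Hp1βΔ/Δ and 1693 in Hp1γΔ/Δ. Leaving out a library gave 715 to 775 genes in Hp1αΔ/Δ, 1352 to 1501 in Hp1βΔ/Δ, 866 to 911 in Hp1γΔ/Δ, 1221 to 1303 in Hp1α/βΔ/Δ, 3230 to 3911 in Hp1α/γΔ/Δ, 1987 to 2110 in Hp1β/γΔ/Δ, 7485 to 7823 in the triple mutant and 7278 to 7685 in the triple mutant against Hp1α/βΔ/Δ. The class of 85 genes shrank to 4 when exactly 0 was asked of each floxed library in the deposited estimated counts (6 after rounding) and to 31 with at least 300 counts in each knockout library, by construction. The level of Gm6089 over that of Lypd4 in Setdb1Δ/Δ cells was 4.91 in CPM and 0.917 in deposited TPM, and that of 1700121C08Rik over Lypd4 1.86 and 0.124.

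Of the named genes, Dmrtc2 alone changed sign, always short of a call: to 0.02 and 0.23 in Hp1α/βΔ/Δ without its replicate 1 and without set A replicate 2, to 0.11 and 0.13 in Hp1α/γΔ/Δ without its replicate 3 and without set B replicate 1, and to 0.31 and 0.014 against the other wild-type set in Hp1α/γΔ/Δ and Hp1β/γΔ/Δ. Over the left-out libraries it ran from -0.41 to 0.23 in Hp1α/βΔ/Δ and from -0.23 to 0.13 in Hp1α/γΔ/Δ. The cause was not tested. In Hp1β/γΔ/Δ the calls of Gm9844, Gm12905 and Cd79a were lost under at least 1 alternative, as was that of Arhgef1 in the triple mutant against Hp1α/βΔ/Δ. Same-numbered libraries did not deviate together (correlations of -0.042 to 0.056), so the numbers were taken not to pair the samples. In Hp1β/γΔ/Δ alone did every library correlate best with its own number. A replicate block gave 768, 1406, 869, 1278, 3547, 1933, 7284 and 7145 genes called, in the order Hp1αΔ/Δ, Hp1βΔ/Δ, Hp1γΔ/Δ, Hp1α/βΔ/Δ, Hp1α/γΔ/Δ, Hp1β/γΔ/Δ, triple mutant and triple mutant against Hp1α/βΔ/Δ. Genes below about 0.1 CPM cannot be told from 0 at this depth.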
